A study of Mus musculus with 14 samples.

Results

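On day 3 of chondrogenic differentiation, 4079 of the 21011 H3K4me3 regions of ATDC5 cells lay inside a protein-coding gene and away from gene ends. A region is a stretch covered by a peak in each of the 2 day 3 H3K4me3 libraries. It was counted as intragenic when it lay over 1 kb from both ends of every RefSeq gene of any biotype and its midpoint fell within the span of a protein-coding gene, called its host. Of the other regions, 14043 came within 1 kb of a gene end and are called gene-end regions, and 2889 lay farther from gene ends and outside protein-coding genes and are called intergenic. The regions were thus selected on their peaks in the 2 day 3 H3K4me3 lists, and their day 3 H3K4me3 values are given as a description and are not tested.

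ATDC5 is a chondrogenic cell line from a mouse teratocarcinoma. An H3K4me3 or a RUNX2 antibody was used to precipitate chromatin from undifferentiated cells (day 0) and after 3 or 10 days in dense droplets fed with β-glycerophosphate and L-ascorbate-2-phosphate, giving 2 libraries per antibody and day and 1 peak list per library. All groups come from 1 unmodified line in culture, and the labels do not say whether 2 libraries of a day are separate cultures. The p values therefore measure only the spread between libraries, part of which can be technical. A gene-end H3K4me3 region on day 3 was found at 8 of 9 chondrocyte marker genes and at 0 of 5 skeletal muscle markers, with 3 of 5 for osteoblasts, 2 of 4 for adipocytes, 1 of 5 for neurons and 1 of 4 each for endothelial, haematopoietic and epithelial cells.

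The lists differ in length. The H3K4me3 lists of replicate 1 on day 0 and replicate 1 on day 10 held 13765 and 15219 peaks, against 20863 to 29022 in the other H3K4me3 lists. The RUNX2 lists held 97 to 108 peaks on days 0 and 10 and 16859 to 19319 on day 3. Reads per library are unknown here, so a missing peak means that none was called at that library's depth.

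H3K4me3, trimethylated lysine on the tail of histone H3, is concentrated at the start sites of active and poised genes, above all at promoters rich in CpG dinucleotides. Away from annotated gene starts the mark can lie at an internal promoter, from which a shorter transcript of the same gene begins, or at a strong enhancer. The regions are described here as possible internal promoters or enhancers, which H3K4me3 alone does not separate. RUNX2 is a runt-domain transcription factor that drives hypertrophic maturation of chondrocytes and osteoblast formation, and its core DNA motif is TGTGGT.

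Some intragenic regions held a transcription start that RefSeq lists inside the gene. The table of starts, in GRCm38.p6 coordinates, can give a gene several starts. The 6 windows below, around such starts, are printed to show the range from CpG-rich to CpG-poor sequence among regions with different histories in the culture. Runx1 and Runx3 are the internal starts of RUNX2's own gene family, Kdm2b encodes a histone demethylase that binds CpG islands, Nav1 encodes a microtubule-associated protein, Prelp encodes a small leucine-rich proteoglycan of cartilage, and Prdm12 encodes a PR-domain regulator of sensory neurons. Each window runs from 250 bases before the start, which is base 251, to the end of its 300 bases, written 5′ to 3′ on the gene's strand with CpG dinucleotides in capitals. The windows are, for Runx1, chr16:92697280-92697579, minus strand; for Runx3, chr4:135152295-135152594, plus strand; for Kdm2b, chr5:122900301-122900600, minus strand; for Nav1, chr1:135585306-135585605, minus strand; for Prelp, chr1:133921352-133921651, minus strand; and for Prdm12, chr2:31639787-31640086, plus strand.
Runx1: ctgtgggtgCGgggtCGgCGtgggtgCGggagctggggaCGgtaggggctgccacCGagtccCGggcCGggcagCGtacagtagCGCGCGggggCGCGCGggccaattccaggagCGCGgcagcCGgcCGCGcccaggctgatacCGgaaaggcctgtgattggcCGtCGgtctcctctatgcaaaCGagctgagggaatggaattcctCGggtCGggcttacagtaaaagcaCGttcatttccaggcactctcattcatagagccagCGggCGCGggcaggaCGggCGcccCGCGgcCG
Runx3: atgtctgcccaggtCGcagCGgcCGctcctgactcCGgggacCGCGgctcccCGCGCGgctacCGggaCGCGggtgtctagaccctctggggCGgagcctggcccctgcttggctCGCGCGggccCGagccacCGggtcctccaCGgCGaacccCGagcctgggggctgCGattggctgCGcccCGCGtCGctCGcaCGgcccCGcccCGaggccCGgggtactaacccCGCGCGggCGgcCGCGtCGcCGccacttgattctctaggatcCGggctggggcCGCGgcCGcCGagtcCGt
Kdm2b: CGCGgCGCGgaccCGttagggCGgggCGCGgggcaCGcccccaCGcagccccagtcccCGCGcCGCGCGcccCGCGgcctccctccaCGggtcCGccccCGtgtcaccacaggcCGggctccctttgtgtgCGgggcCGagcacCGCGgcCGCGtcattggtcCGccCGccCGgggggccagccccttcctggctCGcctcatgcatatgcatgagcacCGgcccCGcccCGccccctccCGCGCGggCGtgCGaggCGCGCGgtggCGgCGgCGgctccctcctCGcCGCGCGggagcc
Nav1: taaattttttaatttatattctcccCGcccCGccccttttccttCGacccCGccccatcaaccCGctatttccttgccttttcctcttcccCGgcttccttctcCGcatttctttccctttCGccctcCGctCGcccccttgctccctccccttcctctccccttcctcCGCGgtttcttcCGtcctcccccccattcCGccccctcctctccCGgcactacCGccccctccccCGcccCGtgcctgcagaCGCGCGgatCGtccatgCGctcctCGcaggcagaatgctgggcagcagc
Prelp: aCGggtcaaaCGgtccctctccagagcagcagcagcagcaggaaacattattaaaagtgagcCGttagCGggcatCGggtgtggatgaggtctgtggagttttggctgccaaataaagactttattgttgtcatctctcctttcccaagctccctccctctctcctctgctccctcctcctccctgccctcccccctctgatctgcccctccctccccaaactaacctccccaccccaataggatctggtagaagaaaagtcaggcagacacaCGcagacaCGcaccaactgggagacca
Prdm12: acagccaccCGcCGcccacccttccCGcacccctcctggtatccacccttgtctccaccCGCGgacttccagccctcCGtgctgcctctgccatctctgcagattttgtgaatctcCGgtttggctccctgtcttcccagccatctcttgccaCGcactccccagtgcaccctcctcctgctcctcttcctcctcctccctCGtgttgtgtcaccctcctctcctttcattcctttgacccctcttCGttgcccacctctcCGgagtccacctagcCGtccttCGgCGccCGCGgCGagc

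The Runx1, Runx3 and Kdm2b windows held 35, 45 and 49 CpG dinucleotides and lay in regions found in all 6 H3K4me3 lists. Nav1, with 24, and Prelp, with 7, lay in regions absent from both day 0 lists and present in both day 10 lists. Prdm12, with 17, lay in a region of day 3 only. A window of another day 3 only region, in D430041D05Rik and not printed, held 37. The ratio of CpG observed to the number its C and G content would give was 1.01 for Runx1, 1.01 for Runx3, 0.996 for Kdm2b, 1.14 for Nav1, 0.326 for Prelp and 0.723 for Prdm12. Of the 6 windows, the Kdm2b window alone held the letters TGTGGT or their reverse complement ACCACA, which were counted on either strand.

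Of 3549 listed starts of protein-coding genes over 1 kb from every gene end, 1303 (36.7%) lay in a day 3 region of any class. Intragenic regions, 775 in number, held 928 of the 3549 (26.1%). Of 17714 listed starts within 1 kb of a gene end, 51.7% lay in a day 3 region. Windows of internal starts in an intragenic region had a median CpG ratio of 0.738, close to the 0.804 of gene-end starts in a region, whereas internal starts outside day 3 regions had 0.255. Internal starts whose region was in all 6 lists had a median ratio of 0.755, and those whose region was not had 0.587. The letters TGTGGT or ACCACA occurred in 12.2% of the windows of internal starts in an intragenic region, in 19.9% of those of internal starts outside day 3 regions and in 15.0% of all 21263 windows of protein-coding genes. These letter counts describe the windows and not RUNX2 binding.

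Intragenic regions that held a listed start were a minority, and their medians of width and strength were higher than those of regions without one. In all, 777 held a listed start, 376 had one within 1 kb and 2793 had none within 1 kb, and starts were not used for the 133 regions on chromosome 18. Fold enrichment is the authors' value for a peak, the linear ratio at its summit to the peak caller's local background, and the lists are not scaled to each other. Regions were ranked by the smaller of their 2 day 3 values, which came from replicate 2 at 91.6% of them. With a start inside, the median width was 1470 bp and the median of the smaller of the 2 day 3 fold enrichments was 9.59. With none within 1 kb, these were 412 bp and 4.97. The groups overlapped, since the strongest quartile described below held 268 regions with a start and 191 with none within 1 kb. Of the regions with a start inside, 744 (95.8%) overlapped a RUNX2 peak in both day 3 lists, against 1110 (39.7%) of those without a start within 1 kb. An H3K4me3 peak in all 6 lists was found at 621 (79.9%) of the former and 461 (16.5%) of the latter.

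As a class, intragenic regions were narrower and weaker than gene-end regions. Their median width was 535 bp, against 1363 bp at gene ends and 442 bp between genes. Their median day 3 fold enrichment was 14.3 in replicate 1 and 5.93 in replicate 2, against 22.1 and 9.26 at gene ends. Fold enrichment was higher in replicate 1 at 3737 of the regions (91.6%). Narrow overlaps of less than 100 bp made up 193 of the regions (4.73%) and 0.812% of gene-end regions.

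A wide H3K4me3 peak in 1 library was often cut into several regions by shorter peaks in the other. In replicate 1, 1399 intragenic regions (34.3%) shared their peak with another region, and for 598 (14.7%) that other region was at a gene end. In replicate 2 the shares were 6.08% and 1.84%. Measured from the whole peak of either library instead of from the shared stretch, 751 regions (18.4%) came within 1 kb of a gene end. For these, an edge of a promoter peak and a separate internal region cannot be told apart. At the distance limit itself, 4 regions just inside, at 1001 to 1005 bp, lay in Htra1, Zfp771, Npm1 and Aqp5, and the 5 just outside, at 997 to 1000 bp, in Anxa2, Tprgl, Kcns3, Zfpm1 and Tmem67.

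H3K4me3 on days 0 and 10 was found less widely at intragenic regions than at gene ends. Of the 4079 regions, 33.9% and 57.8% had a peak in the 2 day 0 lists, and 43.7% and 89.1% in the 2 day 10 lists. At gene ends the day 0 shares were 76.0% and 89.0%, and those of day 10 were 86.1% and 97.9%. The day 10 lists stood on both sides of the higher day 0 list, so the days overlapped. The means were 45.9% ± 16.9 (SD, n = 2) on day 0 and 66.4% ± 32.1 (SD, n = 2) on day 10, a difference of 20.6 percentage points with p = 0.667 in a two-sided exact permutation test over libraries. With 2 libraries against 2, no p below 0.333 is possible, so this design cannot pass 0.05. Without replicate 2 of day 10 the difference turned to -2.15 points, and without replicate 1 of day 10 it was 43.3 points.

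**Figure D1:**
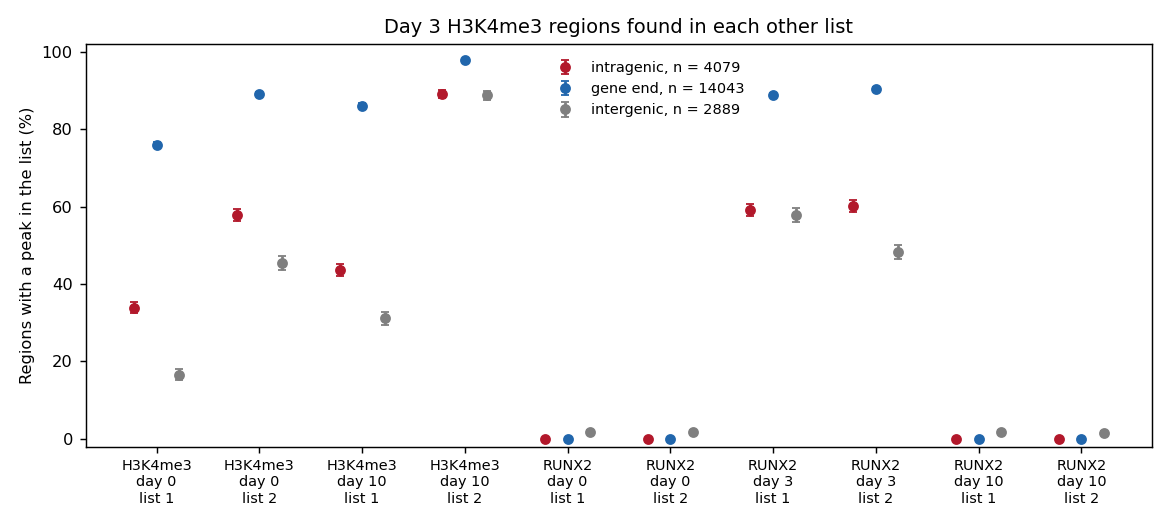
Share of day 3 H3K4me3 regions (%, vertical axis) with a peak in each other list (horizontal axis) for intragenic, gene-end and intergenic regions, with exact 95% intervals. Intragenic regions lie between the other classes in all 4 H3K4me3 lists but stand beside the intergenic ones in day 10 list 2, and RUNX2 peaks are near 0% on days 0 and 10.

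Regions present throughout formed 1 large group. An H3K4me3 peak in all 6 lists was found at 1215 intragenic regions (29.8%, exact Clopper-Pearson 95% interval 28.4 to 31.2), against 57.5% of all day 3 regions, 74.7% at gene ends and 13.2% between genes. With regions taken from replicate 1 of day 3 alone, leaving out replicate 2, the share was 14.0%. These intervals reflect counting error alone, with regions taken as independent. A peak on day 3 only was found at 362 regions (8.87%), against 4.13% of all day 3 regions, 1.59% at gene ends and 9.76% between genes. Without replicate 2 of day 10 this count was 1447, and without day 3 replicate 1 or 2 it was 1557 or 3549. A further 213 regions (5.22%), against 3.62% of all day 3 regions, had no peak in either day 0 list and a peak in both day 10 lists. Without replicate 1 of day 10, a short list, that count rose to 1298. Without replicate 2 of day 0, the longer day 0 list, it was 540, and without the short replicate 1 of day 0 it was 237. The reverse pattern, both day 0 lists and neither day 10 list, held for 7 regions (0.172%), against 0.0524% of all day 3 regions.

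RUNX2 peaks on day 3 lay at 59.2% and 60.1% of the intragenic regions in the 2 libraries. On day 0 the shares were 0.0735% and 0.0981%, and on day 10 they were 0.0735% and 0.0490%. The mean difference was 59.5 percentage points between days 3 and 0 and 59.6 between days 3 and 10, and the libraries did not overlap. In both comparisons p was 0.333 in the two-sided exact permutation test, the smallest that 2 against 2 libraries allow, so neither can pass 0.05. The RUNX2 lists of days 0 and 10 held 97 to 108 peaks genome-wide, and less binding and a less efficient precipitation on those days cannot be told apart here.

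In both day 3 RUNX2 lists together, 2110 intragenic regions (51.7%, 50.2 to 53.3) had a peak, against 74.6% of all day 3 regions, 87.6% at gene ends and 43.7% between genes. The share depended on which regions were counted, at 24.9% without H3K4me3 replicate 2 of day 3 and 91.2% with equal numbers of top peaks per list, and the interval does not cover this. A further 645 had one in a single list and 1324 (32.5%) in neither. Regions with RUNX2 in both lists had a median width of 1136 bp and those in neither 260 bp. Where both marks were found, the summits of the RUNX2 and H3K4me3 peaks lay a median of 158 bp apart in replicate 1 and 151 bp in replicate 2.

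The share with RUNX2 rose with H3K4me3 strength in every class. All day 3 regions were divided into quartiles by the smaller of their 2 day 3 H3K4me3 fold enrichments, with limits at 5.54, 8.30 and 10.4. From the weakest to the strongest quartile the intragenic regions numbered 1988, 977, 610 and 504, and RUNX2 was found in both lists at 20.7%, 64.4%, 93.6% and 98.8% of them. Gene-end regions of the same quartiles had 32.8%, 86.1%, 98.2% and 99.1%, so intragenic and gene-end regions were within 1 percentage point of each other only in the strongest quartile. Intergenic regions had 21.5%, 58.2%, 86.1% and 91.7%, near the intragenic share in the weakest quartile and below it in the others. In the second quartile the intragenic interval of 61.3 to 67.4% lay below the gene-end interval of 84.9 to 87.3%.

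Within a quartile, intragenic regions with a listed start differed from those without. Those holding a start had RUNX2 in both lists at 67.4%, 92.7%, 98.6% and 99.6% from the weakest to the strongest quartile, and those with no start within 1 kb at 19.1%, 56.7%, 88.8% and 97.9%. Presence in all 6 H3K4me3 lists was 8.70%, 69.3%, 85.9% and 92.9% with a start and 2.07%, 19.9%, 63.7% and 68.6% without. Gene-end regions had 8.17%, 63.8%, 89.5% and 93.8%. In the second quartile, the interval of regions with a start for all 6 lists, 62.0 to 75.9%, held the gene-end value, whereas regions without a start lay lower. The quartiles do not match width, whose medians over all quartiles were 1470 bp with a start and 412 bp with none within 1 kb. The part of width in these shares was not tested.

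**Figure D2:**
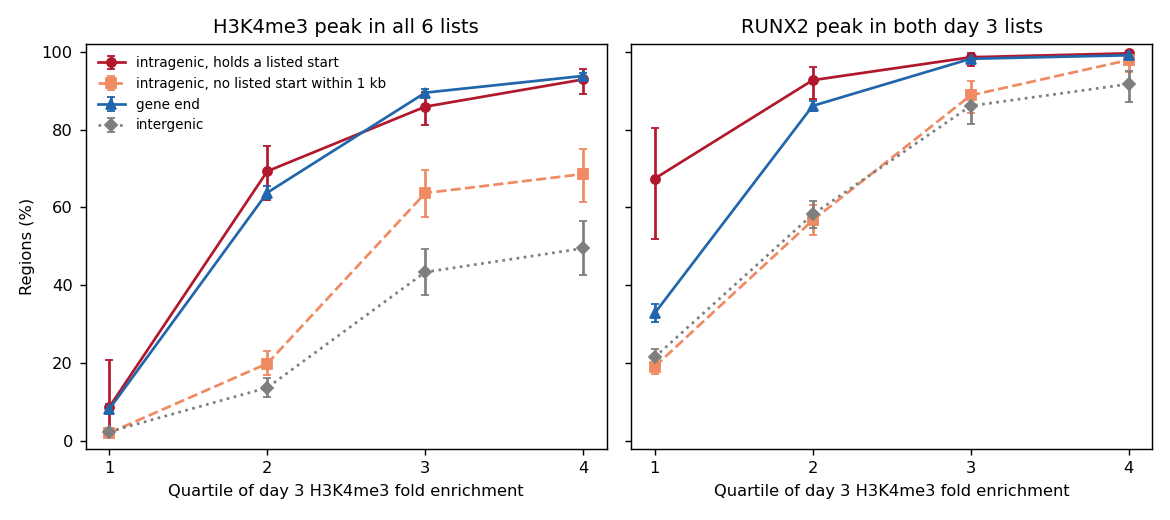
Share of regions (%, vertical axes) with H3K4me3 in all 6 lists (left) and RUNX2 in both day 3 lists (right) by quartile of the smaller day 3 H3K4me3 fold enrichment (horizontal axes), with exact 95% intervals. In each quartile the intragenic regions holding a listed start lie closer to the gene-end regions than to the intragenic regions without a start, which lie lower.

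RUNX2 on day 3 and the persistence of H3K4me3 went together across intragenic regions. Of the 1215 regions in all 6 lists, 1191 (98.0%) had RUNX2 in both day 3 lists. Among the 213 regions absent on day 0 and present in both day 10 lists the number was 111 (52.1%). Among the 362 of day 3 only it was 10 (2.76%). The median of the smaller day 3 fold enrichment ran in the same order in these groups, at 9.58, 5.10 and 3.97. Its part in these RUNX2 shares was not tested, since the quartiles above were not divided by presence on days 0 and 10.

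**Figure D3:**
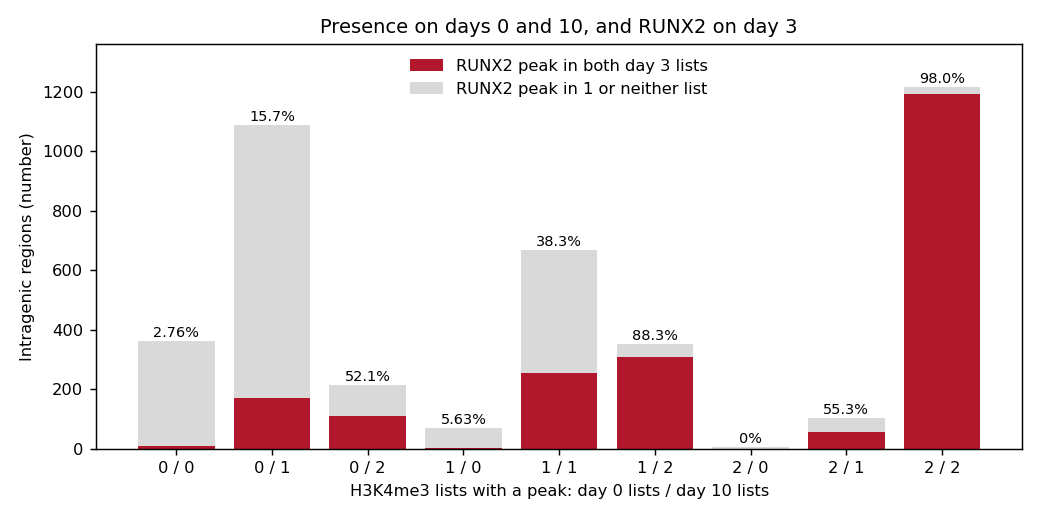
Number of intragenic regions (vertical axis) by how many day 0 and day 10 H3K4me3 lists had a peak (horizontal axis). The coloured part and the percentage give those with RUNX2 in both day 3 lists, which were 2.76% of the 362 regions with no other H3K4me3 peak, 0% of the 7 in both day 0 lists and no day 10 list, and 98.0% of the 1215 in all lists.

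Intragenic regions lay toward the 5′ side of their hosts. For 3175 regions in a single host whose strand the start table gives, 67.6% were nearer the 5′ end. The first 10% of the host's length held 680 regions (21.4%) and the last 10% held 132 (4.16%). Regions holding a listed start were nearer the 5′ end in 78.5% of cases and regions without one within 1 kb in 60.9%. The distance to the nearest gene end had a median of 6029 bp, with 861 regions at 1 to 2 kb and 352 at 50 to 300 kb. RUNX2 in both lists was found at 45.6% of the nearest of these and 56.8% of the farthest, and presence in all 6 lists at 29.6% and 23.6%.

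**Figure D4:**
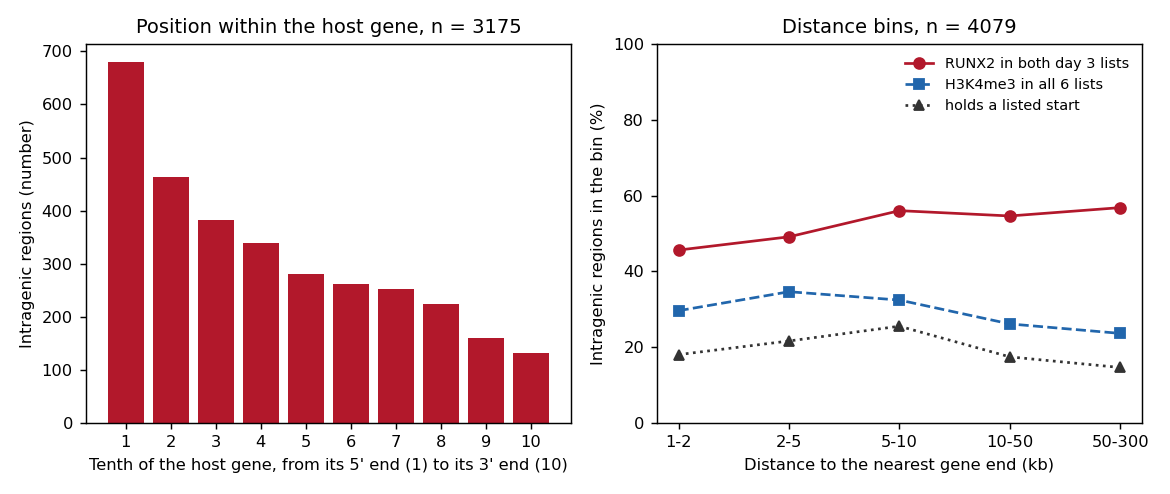
Left, number of intragenic regions (vertical axis) in each 10% of the host gene's length from its 5′ to its 3′ end, which falls from 680 to 132. Right, share of regions (%) with RUNX2 in both day 3 lists, with H3K4me3 in all 6 lists and with a listed start, by distance to the nearest gene end in kb.

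The regions lay in 2756 of 21887 protein-coding genes (12.6%), whose median length was 52.1 kb against 14.6 kb for genes without one. Of the hosts, 1714 (62.2%) also had a day 3 region within 1 kb of one of their own ends, against 55.0% of all protein-coding genes. The remaining hosts had none at either end, and 1488 regions (36.5%) lay in such genes. RUNX2 was found in both lists at 67.4% of these and at 42.7% of the others, and presence in all 6 lists at 41.5% and 23.1%.

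At least 2 regions lay in 812 genes, 3.71% of all protein-coding genes. Neighbouring regions of a gene were a median of 890 bp apart, and 719 of 1410 such gaps (51.0%) were at most 1 kb. When regions within 1 kb were merged, 454 genes had 2 or more, and without day 3 replicate 2 the number was 1620. The genes with the most regions were Zfhx3, a zinc-finger homeobox factor, with 14, Nfix, a nuclear factor I gene, with 11, and Pde4d, a cAMP phosphodiesterase, Wwp2, an E3 ubiquitin ligase, and Ets1, an ETS factor, with 10 each. Bcor, a corepressor of the variant Polycomb complexes, Aopep, an aminopeptidase, Lmna, which encodes lamins A and C, and Dnm3, a dynamin, had 9 each.

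Wwp2, whose intron carries the cartilage microRNA miR-140, had H3K4me3 mostly after day 0. None of its 10 regions was in all 6 lists, and 3 were absent on day 0 and present in both day 10 lists. Of these 3, the regions at 20.9 and 22.7 kb lay under 1 replicate 1 peak of day 3. The Wwp2 regions at 65.6, 66.3 and 67.0 kb likewise shared 1 such peak, so the 10 are not all separate sites. A single region had a peak in the day 0 list of replicate 1 and none in that of replicate 2, against 4 and 9 regions in the 2 day 10 lists. The region 62.2 kb from the 5′ end, 3520 bp wide, had fold enrichments of 2.97 in day 0 replicate 1, 20.7 and 9.55 on day 3 and 5.72 and 9.43 on day 10, with RUNX2 at 4.03 and 6.07 on day 3. At 22.7 kb, a region 2673 bp wide had no day 0 peak, 11.9 and 7.71 on day 3, 5.46 and 6.67 on day 10 and RUNX2 at 4.83 and 4.08. Both carried RUNX2 in the 2 day 3 lists.

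Dnm3 also had no region in all 6 lists. Its 9 regions had 0 and 3 peaks in the day 0 lists and 1 and 9 in the day 10 lists, and 5 carried RUNX2 in both day 3 lists. Bcor had as many with RUNX2, 5 of 9, but 5 of its regions were in all 6 lists and 2 were absent on day 0 and present in both day 10 lists, against 1 in Dnm3. Its strongest, 3685 bp wide at 81.7 kb from the 5′ end, had H3K4me3 fold enrichments of 4.57 and 11.4 at day 0, 18.1 and 12.3 at day 3 and 13.5 and 11.8 at day 10, and RUNX2 at 4.64 and 14.4. Zfhx3 had no day 3 region at its ends. Its 14 regions were spread over 191 kb, and 2 of them were in all 6 lists.

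**Figure D5:**
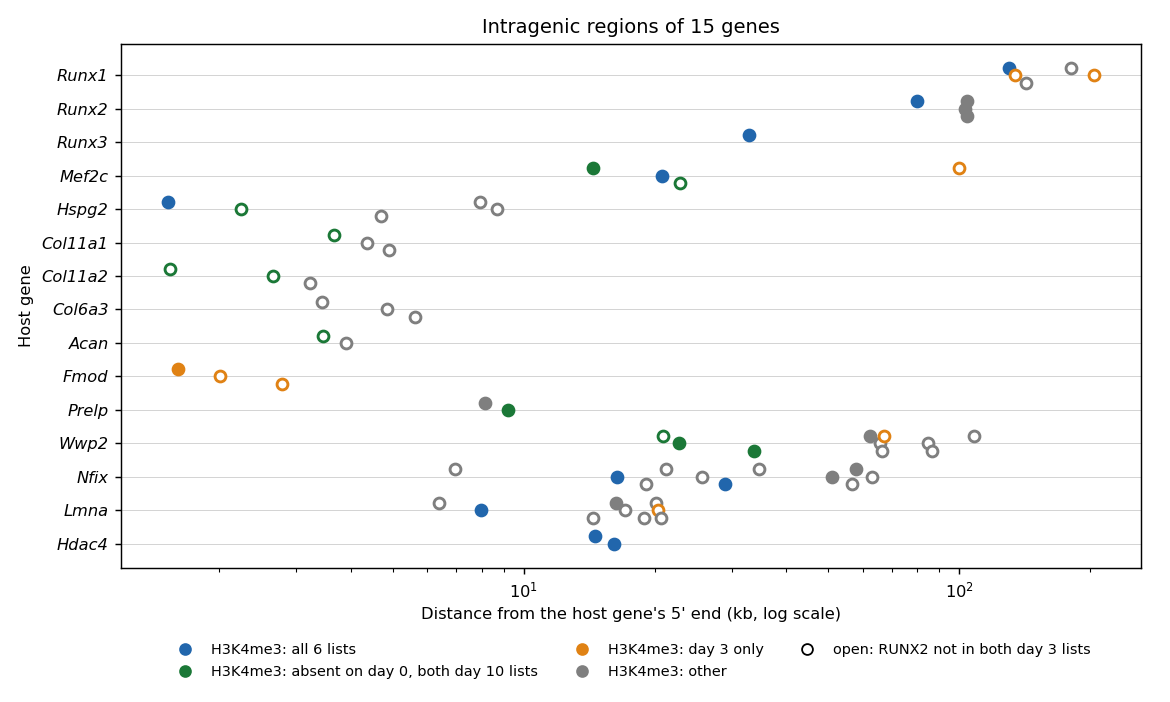
Distance of each intragenic region from its host's 5′ end (kb, log scale, horizontal axis) in 15 genes (vertical axis, points shifted vertically within a gene only to separate them). Colour gives the H3K4me3 history and filled points have RUNX2 in both day 3 lists: the RUNX genes each hold a filled region of all 6 lists, and Wwp2 holds none of that kind.

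The RUNX family genes each had a wide internal region that was present throughout. As background, each of these genes is transcribed from a distal and a proximal promoter. In Runx2 the region spanned 8958 bp, 80.0 kb from the 5′ end (chr17:44730354-44739311), with fold enrichments of 9.83 and 7.21 at day 0, 26.1 and 11.5 at day 3 and 15.0 and 12.7 at day 10. RUNX2 peaks overlapping this region of its own gene had 2.21 and 13.2 in the 2 day 3 lists. The replicate 1 value was low, since the lower quartile over intragenic regions with RUNX2 in both lists was 5.02. Such an overlap was also common, at 98.8% of the intragenic regions in the strongest H3K4me3 quartile, to which this one belongs. Runx2 held 3 more regions at 103 to 104 kb, each in 1 day 0 and 1 day 10 list at most, and with RUNX2 at 4.47 and 5.38. These were neighbouring pieces of 791, 184 and 12 bp linked by shared day 3 H3K4me3 peaks, with the same RUNX2 values at each, and are not 3 separate sites.

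In Runx1, which drives blood formation and is also expressed in early cartilage, a region of 5966 bp at 130 kb held the start printed above. Its fold enrichments were 8.80 and 10.1 at day 0, 29.3 and 10.2 at day 3 and 11.9 and 14.2 at day 10, with RUNX2 at 2.23 and 14.4. The 4 smaller regions of Runx1 were in no list of day 0. In Runx3 a region of 2614 bp at 32.8 kb, with the start printed above, had 5.20 and 7.87 at day 0, 16.4 and 10.3 at day 3 and 12.6 and 15.7 at day 10, and RUNX2 at 7.08 and 15.0. Runx3 had no day 3 region at its ends, whereas Runx1 and Runx2 did.

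Of 40 chondrogenic and skeletal transcription factor genes, 22 (55.0%) held 68 regions, beside 12.6% of all protein-coding genes. Hosts tended to be long genes, and the median length was 110 kb in this list, 17.2 kb over all genes and 90.6 kb in the longest quartile of genes, of which 27.6% held a region. Of the 68 regions 12 were in all 6 lists (17.6%, beside 29.8% of all intragenic regions) and 23 had RUNX2 in both lists (33.8%, beside 51.7%). A further 2 were absent on day 0 and present in both day 10 lists (2.94%, beside 5.22%) and 9 were of day 3 only (13.2%, beside 8.87%). Mef2c, a MADS-box factor needed for chondrocyte hypertrophy, accounted for both of the regions that appeared by day 10. The first, 868 bp at 14.4 kb, had no day 0 peak, 13.0 and 11.6 on day 3, 6.71 and 10.6 on day 10 and RUNX2 at 7.90 and 9.07. The second, 344 bp at 22.8 kb, lay under the same replicate 1 peak as its neighbour, with a fold enrichment of 24.7 on day 3. That neighbouring region of 3006 bp at 20.8 kb, which held a listed start, was in all 6 lists, with 5.63 and 9.96 on day 0 and 11.8 and 12.5 on day 10. Mef2c had no day 3 region at its ends.

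Hdac4, a class IIa deacetylase that restrains hypertrophy by binding MEF2C, had 2 adjacent regions at 14.6 and 16.1 kb, both in all 6 lists and both with RUNX2 in the 2 day 3 lists. Sox5 and Sox6, partners of SOX9 in cartilage gene activation, differed. Sox5 had 5 regions, 2 of them in all 6 lists and 3 with RUNX2 in both. The 2 regions of Sox6, at 216 and 217 kb, were in no day 0 list and had no RUNX2 peak. Both lay under 1 replicate 1 peak of day 3, with a fold enrichment of 6.07 and its summit in neither region. Trps1, a GATA-type factor of the growth plate, had 7 regions, all under 1 peak of replicate 1 with a fold enrichment of 23.7 that reached a gene end, and 1 of them was in all 6 lists.

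Regions in cartilage matrix genes were mostly weak and without RUNX2. Of 30 such genes, of median length 24.3 kb, 11 (36.7%, beside 12.6% of all protein-coding genes) held 27 regions. The median smaller day 3 fold enrichment of these regions was 4.21 beside 5.66 for all intragenic regions. Only 1 was in all 6 lists and 4 had RUNX2 in both (14.8%), whereas 7 (25.9%) were absent on day 0 and present in both day 10 lists and 7 (25.9%) were of day 3 only, beside 5.22% and 8.87% of all intragenic regions. Intragenic regions of the weakest quartile had RUNX2 in both at 20.7%, 6.54% absent on day 0 and present in both day 10 lists, and 17.4% of day 3 only, nearer to the list in RUNX2 and day 3 only than the shares over all strengths. For 12 of the 27 (44.4%, beside 18.4% of all), the whole peak of a day 3 library came within 1 kb of a gene end, so spreading of the promoter peak cannot be told apart from a separate region there. No test was made of these shares, because the lists were chosen with results known.

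Acan, which encodes aggrecan, showed this pattern. Its region of 549 bp at 3.45 kb had no day 0 peak, 15.9 and 4.21 on day 3, 12.5 and 7.75 on day 10 and no RUNX2 peak, and its replicate 1 peak extended to the gene end. Col11a2, a chain of collagen XI, had 2 such regions. The one at 1.54 kb had 14.7 and 4.75 on day 3 and 8.94 and 5.55 on day 10, with no day 0 peak and RUNX2 at 3.62 in 1 list. Col11a1 had one at 3.67 kb, with 20.7 and 5.29 on day 3 and 3.51 and 6.03 on day 10, again with no RUNX2 peak. Hspg2, which encodes perlecan, had 5 regions, of which the one at 1.52 kb was in all 6 lists, with 6.31 and 3.70 at day 0, 19.5 and 4.72 at day 3 and 11.6 and 12.1 at day 10, and RUNX2 at 6.36 and 15.5. A whole day 3 peak also reached a gene end at the Col11a2 region at 1.54 kb and at these Col11a1 and Hspg2 regions. In Acan, Col11a1 and Hspg2 the replicate 1 summit of day 3 lay outside the region, so the replicate 1 value there is not one of the region itself.

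Prelp differed from these in having no day 3 region at its ends. Its region of 1148 bp at 9.19 kb (chr1:133920341-133921488), with the CpG-poor start printed above, had no day 0 peak, fold enrichments of 13.3 and 7.77 on day 3 and 9.40 and 7.18 on day 10, and RUNX2 at 3.97 and 4.00. The Col9a1, Col9a2 and Col9a3 genes of collagen IX likewise had no day 3 region at their ends and held 5 regions, 4 of them of day 3 only. Col9a1, which has an upstream and a downstream promoter, held 1 region of 325 bp at 19.1 kb with 6.29 and 2.97 on day 3 and no other peak. Fmod, which encodes fibromodulin, had 3 regions of day 3 only, 1 of them with RUNX2 at 3.84 and 3.19. That region and its neighbour lay under 1 replicate 1 peak of day 3 that reached a gene end. An edge of a promoter peak cannot be told apart there.

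Signalling genes of the WNT, BMP, TGF-β, FGF and hedgehog pathways, listed together with genes of the IGF and PTH systems, held regions in 18 of 52 (34.6%, beside 12.6% of all genes), at a median length of 61.1 kb. Of their 33 regions, 6 of which lay in Igf1r, the IGF1 receptor gene, and 2 in Pth1r, the PTH receptor gene, 6 were in all 6 lists (18.2%) and 9 had RUNX2 in both (27.3%), below the 29.8% and 51.7% of all intragenic regions. The 4 strongest, in Ptch1, Axin2, Wnt11 and Ltbp1, held listed starts. Among receptors, Ptch1, the hedgehog receptor, had a region of 6064 bp at 7.82 kb with 7.22 and 10.4 at day 0, 21.4 and 11.9 at day 3 and 17.2 and 8.66 at day 10, and RUNX2 at 3.25 and 15.0. Axin2, a scaffold of the β-catenin destruction complex, had one of 2914 bp at 3.58 kb with 8.71 and 13.2, 29.0 and 11.2, and 19.5 and 14.8 on the same days, and RUNX2 at 8.42 and 16.9. Ltbp1, which holds latent TGF-β in the matrix, had one of 5830 bp at 176 kb, also in all 6 lists and with RUNX2 at 3.39 and 9.04. The ligand Wnt11 had a region at 3.74 kb that was in 1 day 0 list and 1 day 10 list.

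Of 40 chromatin regulators, of median length 86.0 kb, 20 (50.0%) held 43 regions, beside 12.6% of all protein-coding genes and 27.6% of the longest quartile of genes. Of the 43 regions, 21 were in all 6 lists (48.8%, beside 29.8% of all intragenic regions) and 27 had RUNX2 in both (62.8%, beside 51.7%). Kdm2b, whose start is printed above, had a region of 2232 bp at 89.3 kb with 7.02 and 11.0 at day 0, 29.3 and 16.8 at day 3 and 21.2 and 23.4 at day 10, and RUNX2 at 6.82 and 20.1. Arid1a, a subunit of the BAF remodelling complex, had one of 3825 bp at 3.71 kb, with RUNX2 at 3.86 and 19.6. Cytoskeleton and focal adhesion genes held regions in 25 of 40 (62.5%, beside the same 12.6% and 27.6%), at a median length of 92.5 kb. Of their 69 regions, 20 were in all 6 lists (29.0%) and 31 had RUNX2 in both (44.9%), near the shares of all intragenic regions. Dst, which encodes the cytolinker dystonin, had 7 of them, including 3 of 1571 to 2326 bp between 98.6 and 329 kb that were in all 6 lists and carried RUNX2 in both. Of 54 genes listed from general knowledge as having internal promoters, 38 (70.4%, beside the same 12.6% and 27.6%) held 127 regions. Their median length was 215 kb, above the 90.6 kb of the longest quartile of genes. Of these regions 35 (27.6%) were in all 6 lists and 63 (49.6%) had RUNX2 in both, again near the shares of all.

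Of 30 long neuronal genes, with a median length of 1147 kb, 11 (36.7%) held 20 regions, beside 12.6% of all protein-coding genes. Per length they held 0.490 regions per Mb, beside 3.97 over all protein-coding genes and 3.05 in the longest quartile, whose median length was 90.6 kb. The region of Magi2, a synaptic scaffold, at 1483 kb was in all 6 lists with RUNX2 at 8.10 and 14.3, and that of Pcdh15 at 230 kb was likewise in all 6 with 7.10 and 11.9. Cdh12 held a region of 1088 bp at 528 kb with 8.18 and 11.4 on day 3, no day 0 peak and no RUNX2 peak.

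The strongest intragenic regions by the smaller day 3 fold enrichment lay in Rnf157, Snd1, Hsf3, Mbnl1, Nrros, Gm40365, Catspere2, Kdm2b, Ntrk3 and Ankrd24. Of these 10, the Kdm2b region alone held a listed start. In Rnf157, a RING-type ubiquitin ligase, the region had 22.3 in both day 3 libraries, no peak and 14.1 on day 0, and 5.45 and 26.1 on day 10, with RUNX2 at 7.47 and 8.16. In Mbnl1, a splicing regulator, it had 3.79 and 9.60 at day 0, 33.0 and 18.0 at day 3 and 8.26 and 20.6 at day 10, with RUNX2 at 8.88 and 7.82. All 10 had RUNX2 in both lists. Replicate 1 of day 0 lacked a peak at 4 of them (Rnf157, Hsf3, Nrros and Catspere2) and replicate 1 of day 10 at Ntrk3.

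The strongest RUNX2 peaks on intragenic regions lay mostly at internal starts. Ranked by the smaller day 3 RUNX2 fold enrichment, the first 10 regions lay in Hlcs, Exoc6, Ntpcr, Dhx30, Arhgef4, Intu, Zfp65, Nemp2, Tars2 and Flywch1, and all 10 were in all 6 H3K4me3 lists. Listed starts lay in 7 of them, the exceptions being Dhx30, Zfp65 and Tars2. The nearest listed start was 15 bp from the Dhx30 region, 28 bp from the Tars2 region and 4423 bp from the Zfp65 region. Hlcs, which encodes the ligase that attaches biotin to carboxylases, had RUNX2 at 13.0 and 16.6 and H3K4me3 at 7.62 and 9.46 at day 0, 22.3 and 9.78 at day 3 and 16.6 and 10.2 at day 10. Exoc6, an exocyst subunit, had RUNX2 at 12.9 and 18.1.

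The regions that appeared by day 10 with the largest day 3 values lay in Pdlim3, Mef2c, Glra4, Plekha5 and Scml4. In Pdlim3, an actinin-binding LIM protein of muscle, the region of 734 bp at 31.7 kb had no day 0 peak, 21.3 and 14.2 on day 3, 3.23 and 14.5 on day 10 and RUNX2 at 8.87 and 7.56. RUNX2 was in both lists at the first 4 of the 5 and in 1 at Scml4. Among regions with a listed start, 14 appeared by day 10, led by Nav1, Filip1, Prelp, Gpr35 and Zfp385b. Nav1 had 9.98 and 8.73 on day 3 and 4.58 and 10.4 on day 10, with RUNX2 at 5.87 and 6.62, and Gpr35, a G protein-coupled receptor, was the one of the 5 with no RUNX2 peak.

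Regions of day 3 only were weak and often narrow. The strongest lay in Cux2, Ttc6, Uggt2, Prdm12 and Pou2f2, with widths of 30, 232, 142, 1456 and 21 bp. In Cux2, Uggt2 and Pou2f2 the summits of both day 3 peaks lay outside the region, so the values ranked are those of the peaks. At Cux2 and Pou2f2 a whole day 3 peak came within 1 kb of a gene end, and an edge of a promoter peak cannot be told apart there. Prdm12, with 7.60 and 6.78 and no RUNX2 peak, was the only one of these 5 with a listed start, and 5 of the 777 regions with a start had this history. Of the 7 regions found in both day 0 lists and neither day 10 list, 3 lay on chromosome 18, and the strongest of the others was a stretch of 281 bp in Palld, an actin-binding scaffold, with 3.76 and 13.9 on day 0, 22.8 and 5.04 on day 3 and RUNX2 at 13.8 in 1 list.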

How the data were processed

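Peak lists of 12 ChIP-seq libraries were used, and the 2 input libraries were not. Per the submitters' processing notes, the 75 bp reads went through FastQC, Trim Galore, HISAT2 2.2.0 and MACS2. Settings and further versions: not given in the sources used here. Each deposited list names a single library, so peaks were called by the authors library by library. From their column order, the deposited lists hold positions, a score, a fold enrichment (a linear ratio) and 2 −log10 columns, for the p-value and the q-value. The smallest deposited −log10 q ran from 1.30 to 1.63 over the lists.

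The notes name the build GRCm39, but the lists were read as GRCm38. With RefSeq genes of that build, 66.8% of the day 3 regions lay within 1 kb of a gene end, and 17.5% after a shift of 20 kb. Positions are counted from 1, and sequences and starts are from RefSeq (GRCm38.p6). Regions, overlaps of at least 1 bp, shares with Clopper-Pearson intervals and exact permutation tests over libraries were computed with Python 3.11.15, pandas 2.3.3, numpy 2.4.6 and scipy 1.17.1, and the region code was tested on simulated lists. A region overlapping several peaks of a list was given the largest fold enrichment among them.

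The regions, the 7 gene lists and the rule for named genes were chosen with earlier results of these data known. The rule named the 10 strongest regions, the 10 genes with the most regions, the 5 strongest regions of each presence pattern, the 10 strongest with RUNX2, the 5 strongest per gene list and the 5 either side of the 1 kb limit, of which 1 is not reported here. Regions with a listed start, the printed sequences and further regions of listed genes were picked after their values were seen. Regions on chromosome 18 are counted but not described singly. The alternatives tried were a −log10 q of at least 5, equal numbers of top peaks, limits of 2 and 5 kb, ends of protein-coding genes only, a larger overlap, merging within 1 kb, leaving out each library and blocking on the replicate number. Distance from whole peaks, and leaving out replicate 1 of days 0 and 10 together, were added after seeing the data.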

Additional observations from a re-analysis of the deposited data

How the results depend on the processing

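The depth of the libraries is unknown, and the cause of the changes below was not tested. The short lists of replicate 1 on days 0 and 10 bear on presence in all lists and on appearance by day 10. Without these 2 lists together, the day 3 only count was 368, beside 362 with all lists. With equal numbers of top peaks per list there were 1496 intragenic regions and 170 genes with at least 2, RUNX2 was in both lists at 91.2%, all 6 H3K4me3 lists held 67.6%, and 70 regions appeared by day 10 and 51 were of day 3 only. With a −log10 q of at least 5, 532 genes had at least 2 regions, the 2 shares were 61.9% and 34.9%, and 158 regions were of day 3 only. Beyond 5 kb there were 2199 regions, 451 genes with at least 2, shares of 55.3% and 27.6%, and 114 and 193 regions of the 2 patterns. The RUNX2 share was 53.4% beyond 2 kb. With ends of protein-coding genes only the shares were 53.9% and 32.3%, with overlap of at least 50% of the region 45.1% and 19.8%, and with regions within 1 kb merged 57.9% and 34.5%, with 454 genes. Measured from whole peaks, an alternative chosen after seeing the data, they were 57.1% and 32.5%. Without replicate 1 of days 0 and 10 together, chosen likewise, 55.9% were in all remaining lists and 1353 regions appeared by day 10.

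Leaving out single libraries moved the number of regions between 5368 and 7441 and the genes with at least 2 between 1132 and 1620. The RUNX2 share ranged from 24.9 to 60.1%, presence in all lists from 14.0 to 37.8%, appearance by day 10 from 194 to 1298 regions and day 3 only from 364 to 3549. The H3K4me3 difference between days 10 and 0 ranged from -2.15 to 43.3 points and turned only without replicate 2 of day 10. The RUNX2 differences ranged from 29.0 to 60.0 points against day 0 and from 29.0 to 60.1 against day 10.

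With the replicate number as a block, the differences stayed at 20.6, 59.5 and 59.6 points with an exact permutation p of 0.500, the smallest that 2 pairs allow. Over 12082 regions in all 6 lists, the replicate differences in log2 fold enrichment correlated at 0.301 (days 0 and 3), 0.440 (days 0 and 10) and 0.303 (days 3 and 10), and the labels give no pairing.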

Other observations

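A small set of intragenic regions overlapped a RUNX2 peak of day 0 or day 10, namely 6 of 4079 (0.147%), and all were chosen for description after their values were seen. The regions in Chl1, an adhesion molecule gene, and Zc3h7a, a zinc-finger gene, had a RUNX2 fold enrichment of 20.0 and 13.5 in replicate 1 of day 3, but 2.41 and no peak in replicate 2. On days 0 and 10 the RUNX2 values were 2.91, 3.02, 2.36 and 2.13 in the 4 lists for Chl1, and 3.05 in day 0 replicate 2 and 1.90 in day 10 replicate 2 for Zc3h7a. Their H3K4me3 fold enrichments on day 3 were 2.33 and 3.10 for Chl1 and 3.24 and 2.19 for Zc3h7a. The 20.0 in Chl1 was the largest RUNX2 value of replicate 1 on any intragenic region, whose median was 6.05. Deptor, which encodes an inhibitor of the TOR kinase, had a RUNX2 peak of 9.42 in day 0 replicate 1 and none in the other RUNX2 lists, day 3 included, at a region with 5.99 and 6.62 for H3K4me3 on day 3.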
